A study of Mus musculus with 24 samples.

Results

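Ptpn11 encodes Shp2, the tyrosine phosphatase deleted in these mice, and 7 further genes encode the signalling chain that it serves: Gab1, Grb2, Sos1, Nras, Hras, Map2k1 and Mapk3. These 8 genes were chosen by name, with earlier results of these data known. All 8 were found among the 24319 genes of each of 2 deposited tables, 1 for whole liver and 1 for isolated hepatocytes. PolyA RNA was sequenced from male mice aged 2 months, with 3 libraries in each of 8 groups, 24 in all. The knockout genotypes were Shp2 KO (Alb-Cre+;Shp2f/f), Double KO (Alb-Cre+;IkkBf/f;Shp2f/f) and IkkB KO (Alb-Cre+;IkkBf/f), and they were set against wild-type (WT) C57/BL6 mice. IkkB is a kinase that activates NF-kB, and the series title names the combined loss of Ras-Erk and NF-kB signalling as the subject. The albumin promoter drives Cre recombinase in hepatocytes, so blood, vessel and stellate cells of the liver keep the floxed genes. The labels give neither Cre nor a floxed allele for the WT mice, and therefore no group controls for Cre alone.

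Growth factor receptors at the cell surface become phosphorylated on tyrosine when they bind a ligand. The docking protein Gab1 then gathers Shp2, and the adaptor Grb2 brings the exchange factor Sos1 to the membrane, where Sos1 loads small Ras GTPases such as Hras and Nras with GTP. Active Ras switches on Raf kinases, which phosphorylate the MEK kinases Mek1 (Map2k1) and Mek2 (Map2k2), and these phosphorylate ERK kinases such as Erk1 (Mapk3). Shp2 promotes Ras activation downstream of many receptors, and the chain acts through protein contacts and phosphorylation, which transcript levels do not measure.

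Each value below is the authors' expression value for a gene in a genotype, taken to be FPKM, a fragment count scaled by transcript length and by library size, as Cuffdiff usually writes. The tables hold no replicate values, which leaves no SD to give, and library depth is unknown. Replicate error enters through the Cuffdiff q-value, which the authors adjusted for multiple tests. A gene is said to have risen or fallen where q was under 0.05 and its value was at least 0.1 in 1 of the 2 genotypes. Levels were compared within a table, since the tables were made separately.

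The chain holds families of related genes, and the coding sequences show how far their reads can be told apart. Coding sequences were taken from the GENCODE M21 transcripts on GRCm38, whereas the authors used mm9. Over the whole coding sequence Nras and Hras were identical at 75.3% of aligned bases, and their longest shared run was 23 bases. The kinase pair Map2k1 and Map2k2, on chromosomes 9 and 10, was the closest pair of those compared, at 78.2%. These genes share the longest run of the pairs compared, 56 bases, shown here in full because reads inside it fit both genes. It lies at coding positions 391 to 446 of Map2k1 and 403 to 458 of Map2k2.
Map2k1 and Map2k2: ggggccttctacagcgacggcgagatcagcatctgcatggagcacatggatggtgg
A 50-base window falling inside this run fits both genes, and 7 of the 2387 windows of that length in Map2k1 transcripts did so (0.293%). No 50-base window of Ptpn11, Sos1 or Hras was found in another gene's transcripts, and 1 of 2100 was in Mapk3. In Nras 0.783% of windows were shared, with transcripts of 160 other genes in all. Grb2 shared 7.54% of its windows with 2 processed pseudogenes, and Gab1 shared 4.37% with the antisense gene Gm31105, which covers 5.23% of Gab1 exon bases on the opposite strand. Strand use in counting was not stated, so antisense reads may be counted in Gab1, and reads that fit Grb2 and its pseudogenes may be assigned to either.

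Ptpn11, on chromosome 5, was lower in both genotypes that carry the floxed Shp2 allele, in both tables. In whole liver its FPKM was 4.09 in Shp2 KO, 6.09 in Double KO, 10.1 in IkkB KO and 12.5 in WT. In isolated hepatocytes its FPKM was 4.47 in Shp2 KO, 5.77 in Double KO, 14.5 in IkkB KO and 16.3 in WT. The order of the genotypes was thus the same in both tables, with both genotypes that carry the floxed allele below both that do not. Going down that order, WT and IkkB KO did not differ past the threshold in either table, IkkB KO and Double KO did in both, and Double KO and Shp2 KO did in liver alone of these tables.

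Ptpn11 fell to 32.8% of the WT level in Shp2 KO livers (q = 0.000955 in the authors' deposited table), and to 27.4% in Shp2 KO hepatocytes (q = 0.00048). In Double KO it fell to 48.8% of WT in liver and to 35.5% of WT in hepatocytes, with the same q-values, the smallest that each authors' deposited table holds. Ptpn11 transcript was thus still measured in every knockout group, and a gene total cannot tell hepatocyte RNA from that of other cells. Such a total also counts reads from exons outside the deleted part of the gene. In IkkB KO, with no floxed Shp2 allele, Ptpn11 stood at 81.2% of WT in liver (authors' deposited table, q = 0.366) and 89.1% in hepatocytes (q = 0.650), and neither difference passed.

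The genotypes with the floxed Shp2 allele differed from each other in liver. Ptpn11 was 1.49-fold higher in Double KO than in Shp2 KO livers (q = 0.0226 in the authors' deposited table). In hepatocytes Double KO stood 1.29-fold above Shp2 KO, and this did not pass (q = 0.213 per the authors' deposited table). Against IkkB KO, Ptpn11 fell to 60.1% in Double KO livers (authors' deposited table, q = 0.00175) and to 39.8% in Double KO hepatocytes (q = 0.00048). It fell to 40.4% in Shp2 KO relative to IkkB KO livers (authors' deposited table, q = 0.000955), a pair that the hepatocyte table does not hold. On the log2(value + 1) scale the Double KO difference against WT was -0.93 in liver, against -1.68 for the sum of both single knockout differences. The hepatocyte values were -1.35 for Double KO and -1.82 for the sum. With no replicate values this departure from the sum was not tested.

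Markers of other cell types moved with the genotypes, and Ptpn11 is not a gene of hepatocytes alone. Summed FPKM of 11 macrophage and Kupffer cell markers was 332 in Shp2 KO, 663 in Double KO, 336 in IkkB KO and 247 in WT livers. In hepatocytes the sum was 245 in Shp2 KO, 310 in Double KO, 311 in IkkB KO and 102 in WT. All 11 macrophage markers rose in Double KO livers, against 3 in Shp2 KO and 2 in IkkB KO livers. In hepatocytes 10 rose in Shp2 KO, 11 in Double KO and 11 in IkkB KO. Over all tested genes 5.23% rose in Shp2 KO, 11.5% in Double KO and 2.37% in IkkB KO livers. The hepatocyte shares were 7.13%, 9.04% and 7.6% in the same order. The sum of 11 stellate cell and fibroblast markers was 186, 304 and 166 in Shp2 KO, Double KO and IkkB KO livers and 157 in WT livers. The sum of 10 bile duct markers was 52.4, 149 and 41.4 in the same knockout livers and 66.9 in WT livers. Of 8 tested bile duct markers 1 rose and 1 fell in Double KO livers, near the shares of all tested genes (11.5% and 6.62%). None rose and 2 fell in Shp2 KO livers, and none rose and 4 fell in IkkB KO livers, where 4.1% and 2.17% of all tested genes fell. In hepatocytes the bile duct sum was 46.5 in Shp2 KO, 63.8 in Double KO, 33.6 in IkkB KO and 20.8 in WT. In hepatocytes the stellate cell sum was 92.1 in Shp2 KO, 104 in Double KO, 189 in IkkB KO and 54.5 in WT, and the sum of 11 endothelial markers was 58.8, 91.0 and 101 in the same knockouts and 52.8 in WT. In liver the endothelial sum was 81.3 in Shp2 KO, 111 in Double KO, 107 in IkkB KO and 113 in WT. Of the 11 endothelial markers 4 fell in Shp2 KO livers, as Ptpn11 did, with none higher, where 4.1% of all tested genes fell. The part of these cells in the Ptpn11 values was not tested, and in bulk samples fewer cells of a type and less RNA per cell cannot be told apart. Of 10 hepatocyte markers 7 had values above 0 in all 4 genotypes of both tables, with sums from 8203 to 12920 in liver and from 8144 to 12497 in hepatocytes. Alb and Serpina1c were listed at 0 throughout and Apoa1 at 0 in some groups, with a status that marks genes too abundant for Cuffdiff to test.

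**Figure D1:**
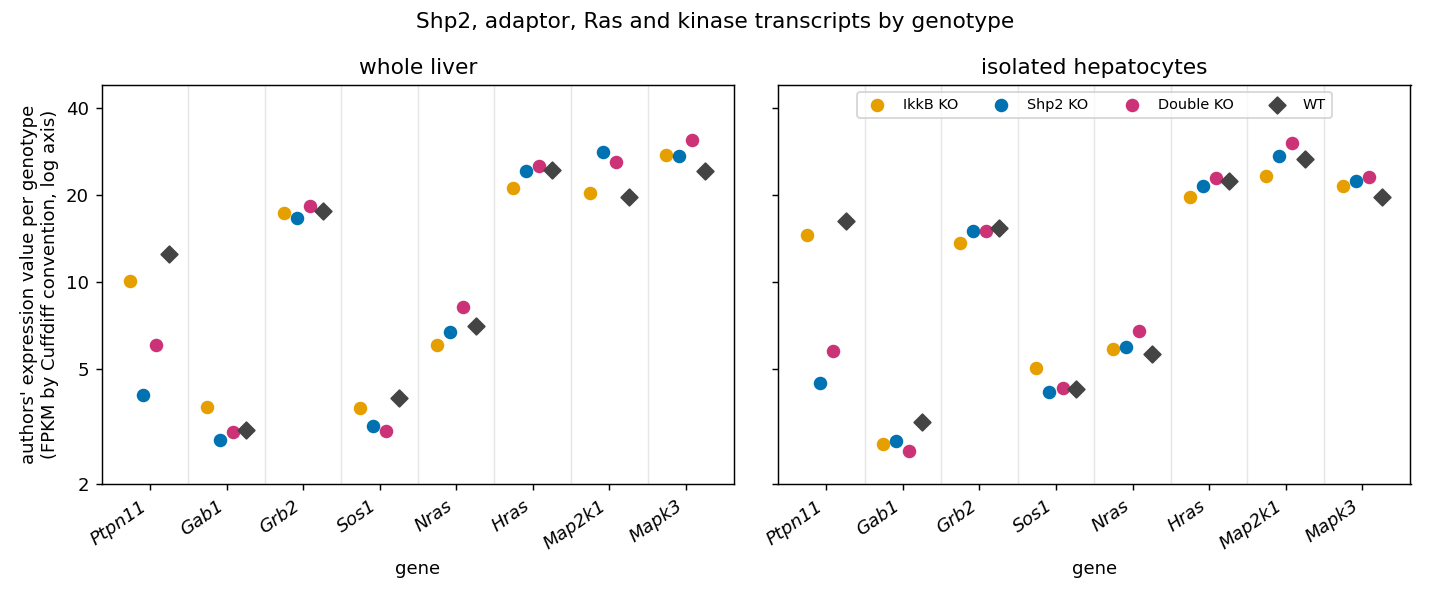
Expression value (FPKM by the convention of Cuffdiff, log axis) of each of the 8 genes in Shp2 KO, Double KO, IkkB KO and WT, in whole liver and isolated hepatocytes, 1 value per genotype with no error bar because the tables hold no replicate values. Ptpn11 is lowest in Shp2 KO (4.09 in liver and 4.47 in hepatocytes) and highest in WT, while the other genes differ by at most 1.42-fold between genotypes.

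The adaptor step showed no change past the threshold. Gab1, the docking protein that binds Shp2, had 2.85 FPKM in Shp2 KO, 3.03 in Double KO, 3.70 in IkkB KO and 3.08 in WT livers. In hepatocytes it had 2.83 in Shp2 KO, 2.60 in Double KO, 2.76 in IkkB KO and 3.28 in WT. Gab1 was thus the lowest of the 8 genes in WT of both tables, and each knockout lay below WT in hepatocytes but not in liver.

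Grb2, the adaptor that links receptors and docking proteins to Sos1, varied least. It had 16.7 FPKM in Shp2 KO, 18.3 in Double KO, 17.4 in IkkB KO and 17.7 in WT livers, and 14.98 in Shp2 KO, 15.02 in Double KO, 13.7 in IkkB KO and 15.4 in WT hepatocytes. Its highest genotype was 1.10 times its lowest in liver and 1.12 times in hepatocytes. Among genes with a mean value between 2 and 40, 7.27% of 7399 in liver and 13.8% of 7321 in hepatocytes varied less than Grb2. For Ptpn11 the same ratio was 3.05 in liver and 3.64 in hepatocytes, above 95.9% and 96.3% of those genes.

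Sos1, the exchange factor that loads Ras with GTP, had 3.19 FPKM in Shp2 KO, 3.05 in Double KO, 3.67 in IkkB KO and 3.98 in WT livers. The Double KO difference had an unadjusted p of 0.0477 in the authors' deposited table and did not pass after adjustment (q = 0.225). In hepatocytes Sos1 had 4.19 in Shp2 KO, 4.31 in Double KO, 5.04 in IkkB KO and 4.29 in WT. WT was thus the highest genotype in liver and lay inside the range of the knockouts in hepatocytes.

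**Figure D2:**
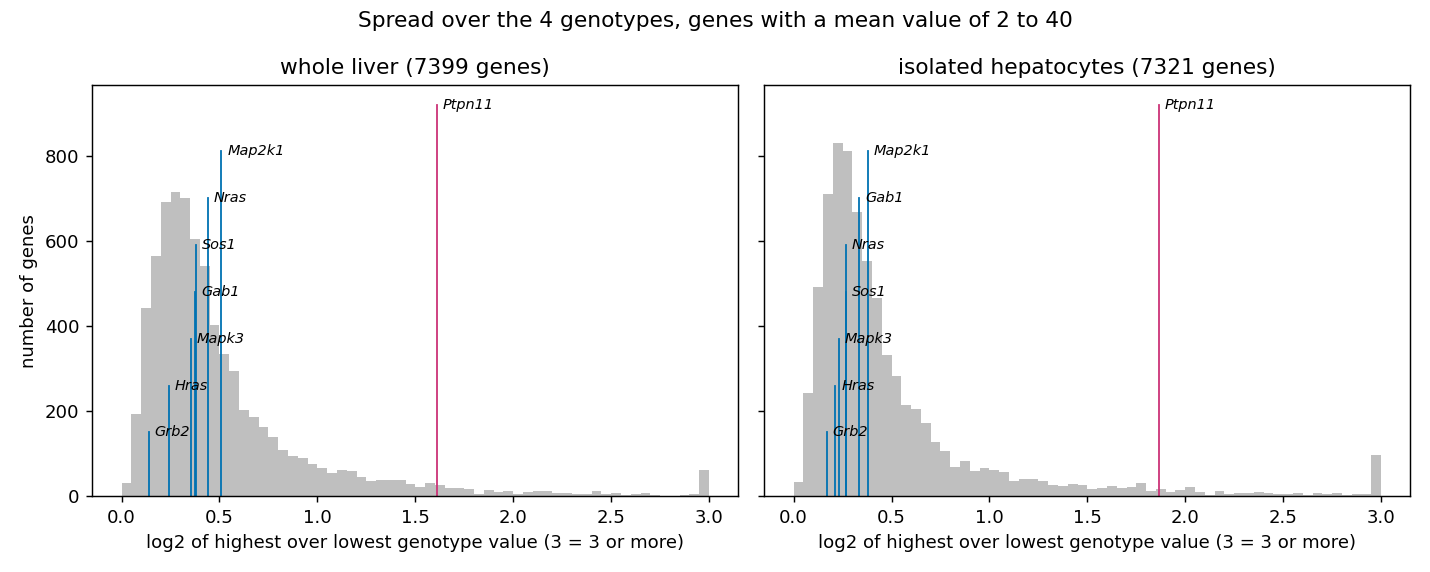
Highest genotype value over lowest genotype value, on a log2 axis, for each of the 8 genes against the distribution of this ratio over all genes with a mean value between 2 and 40 (7399 in whole liver, 7321 in isolated hepatocytes). Ptpn11 lies in the upper tail at 3.05 in liver and 3.64 in hepatocytes, and Grb2 lies in the lower part at 1.10 and 1.12.

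No difference in a Ras gene of the chain passed the threshold. Hras, on chromosome 7, had 24.3 FPKM in Shp2 KO, 25.1 in Double KO, 21.2 in IkkB KO and 24.5 in WT livers, and 21.5, 22.9, 19.7 and 22.3 in the same genotypes of hepatocytes. Nras, on chromosome 3, had 6.75 in Shp2 KO, 8.22 in Double KO, 6.07 in IkkB KO and 7.03 in WT livers. In hepatocytes Nras had 5.97 in Shp2 KO, 6.78 in Double KO, 5.85 in IkkB KO and 5.64 in WT. The smallest q of Hras and Nras in the authors' deposited tables was 0.130, for Nras in Double KO against IkkB KO livers, where the unadjusted p was 0.0216.

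Map2k1 was the only one of the 7 genes downstream of or beside Shp2 that passed the threshold in any comparison. It encodes Mek1, which phosphorylates ERK. Map2k1 had 28.0 FPKM in Shp2 KO, 26.1 in Double KO, 20.3 in IkkB KO and 19.7 in WT livers. Both genotypes with the floxed Shp2 allele were thus above both genotypes without it. It rose 1.42-fold in Shp2 KO livers (q = 0.0438 in the authors' deposited table), close to the threshold of 0.05. With Benjamini-Hochberg adjustment of the p-values within that comparison q was 0.0569, and the difference no longer passed. The Double KO difference was 1.32-fold (authors' deposited table, q = 0.142), and Shp2 KO stood 1.38-fold above IkkB KO (q = 0.0771).

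The hepatocyte table did not show the same gap. Map2k1 had 27.3 FPKM in Shp2 KO, 30.2 in Double KO, 23.3 in IkkB KO and 26.6 in WT hepatocytes. The Shp2 KO value was 1.03-fold of WT (authors' deposited table, q = 0.935). Whether the effect of the Shp2 deletion on Map2k1 differed between liver and hepatocytes was not tested, since the tables hold no replicate values. Its paralogue Map2k2 (Mek2) had 66.2 in Shp2 KO, 62.5 in Double KO, 62.7 in IkkB KO and 64.9 in WT livers, with no difference past the threshold. Map2k1 therefore made up 29.7% of the summed MEK value in Shp2 KO, 29.4% in Double KO, 24.5% in IkkB KO and 23.3% in WT livers. The shares in hepatocytes were 32.5% in Shp2 KO, 34.7% in Double KO, 33.1% in IkkB KO and 31.0% in WT.

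Mapk3 (Erk1), the last kinase of the chain, had 27.3 FPKM in Shp2 KO, 30.9 in Double KO, 27.5 in IkkB KO and 24.1 in WT livers. In hepatocytes Mapk3 had 22.4 in Shp2 KO, 23.0 in Double KO, 21.4 in IkkB KO and 19.6 in WT. All 6 knockout values were above their WT value, and none passed the threshold, with the smallest q of the authors' deposited table at 0.249 in Double KO livers.

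**Figure D3:**
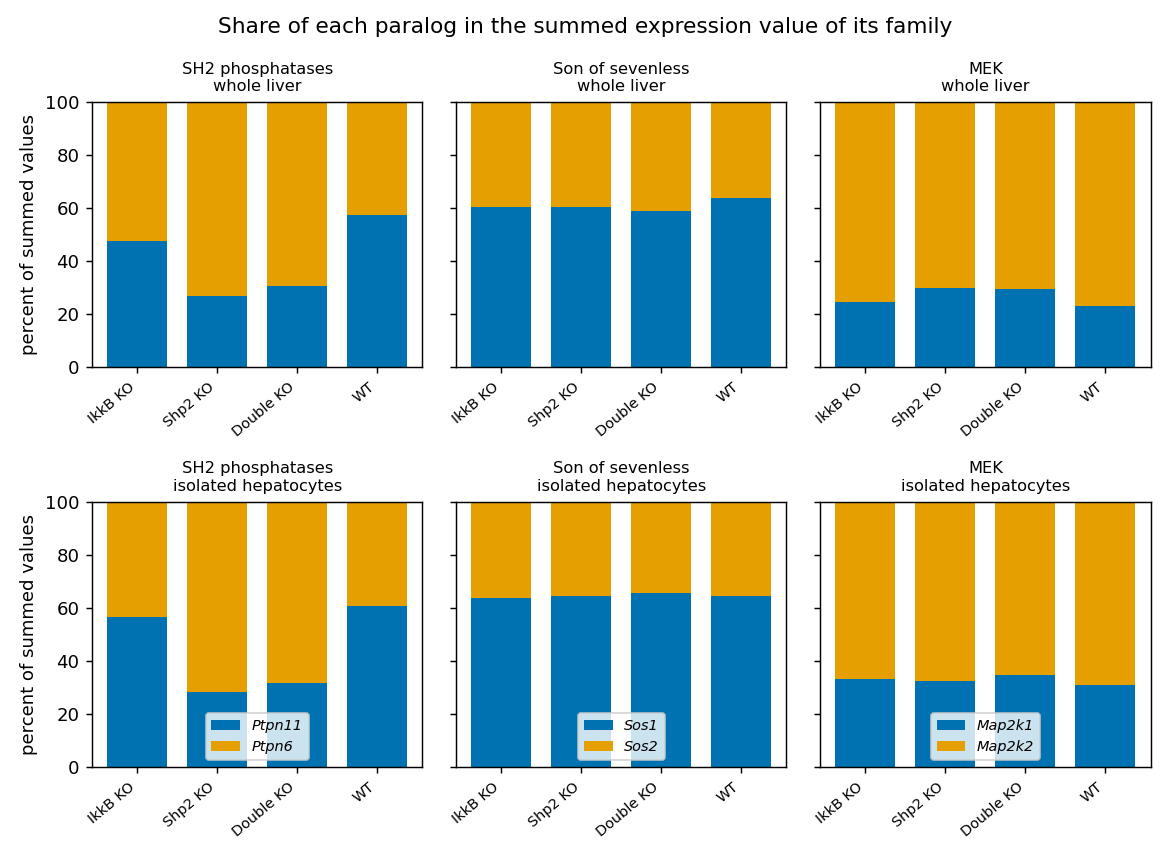
Share (percent) of the summed expression value held by each gene of 3 pairs of paralogues (Ptpn11 and Ptpn6, Sos1 and Sos2, Map2k1 and Map2k2), in Shp2 KO, Double KO, IkkB KO and WT, in whole liver and isolated hepatocytes. Ptpn11 holds 26.8% of the Ptpn11 and Ptpn6 sum in Shp2 KO livers and 57.3% in WT livers, and Map2k1 holds 29.7% of the MEK sum in Shp2 KO livers and 23.3% in WT livers.

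Counted over all comparisons, 9 of 88 tests of the 8 genes passed, and 8 of these 9 were Ptpn11. In Shp2 KO against WT livers 2 of 8 passed, Ptpn11 lower and Map2k1 higher, where 9.33% of 12588 tested genes passed. In Double KO against WT livers 1 of 8 passed (18.1% of all tested genes), and in IkkB KO against WT livers 0 of 8 (4.54%), with 0 of 8 at an unadjusted p under 0.05. Between knockout livers 1 of 8 passed in each pair, against a background of 19% for Double KO over IkkB KO, 10.8% for Double KO over Shp2 KO and 10.3% for Shp2 KO over IkkB KO. In hepatocytes 1 of 8 passed in Shp2 KO against WT (11.7% of all tested genes), in Double KO against WT (13.6%) and in Double KO against IkkB KO (11.4%). None of 8 passed in IkkB KO against WT hepatocytes (9.41%) or in Double KO against Shp2 KO hepatocytes (6.76%), and none of these had an unadjusted p under 0.05. Without the targeted gene, 1 of 77 tests passed by the authors' Cuffdiff q-values.

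The 76 differences that did not pass ranged in size between a 0.768-fold and a 1.38-fold ratio, or -0.38 to 0.46 in the log2 fold change of the authors' deposited table. Of these 76, 5 had an unadjusted p under 0.05, all in liver. The tables pass few differences of that size for any gene. Among genes with a mean value between 2 and 40, none with an absolute log2 difference of 0.2 to 0.4 passed in any of the 11 comparisons, and 6.41% to 14.7% passed at 0.4 to 0.6. At 0.6 to 0.8 the share was 58.9% to 74.9%. Log2 differences under 0.4 in these 7 transcripts were therefore not detectable in these tables, and a value that did not pass does not show that the genotypes were equal.

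The sign of the 8 differences in liver and in hepatocytes matched for 8 genes in Double KO against IkkB KO, 7 in Shp2 KO against WT, 6 in Double KO against WT, 5 in Double KO against Shp2 KO and 4 in IkkB KO against WT. The median difference of the 7 genes other than Ptpn11, on the log2(value + 1) scale, was -0.051 in Shp2 KO against WT livers, beside -0.028 for all tested genes. It was 0.051 in Double KO against WT livers, beside -0.031 for all tested genes. In hepatocytes the corresponding medians were -0.028 beside -0.0080 in Shp2 KO, 0.031 beside 0.010 in Double KO and -0.16 beside 0.0015 in IkkB KO.

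Upstream of Shp2, growth factor receptors moved in both directions, and 3 of them fell in Shp2 KO livers. Of 14 tested receptor genes 3 fell in Shp2 KO livers and none rose, and the median log2(value + 1) difference of the 14 was -0.05, beside -0.028 for all tested genes. In Double KO livers 2 rose and 2 fell of 14, and in IkkB KO livers none rose and 1 fell. Of 13 tested in hepatocytes 1 rose and 3 fell in Shp2 KO, 2 rose and 5 fell in Double KO, and 3 rose and none fell in IkkB KO. Of all tested genes 4.1% fell in Shp2 KO livers and 2.17% in IkkB KO livers. In Double KO livers 11.5% rose and 6.62% fell. The hepatocyte shares were 7.13% up and 4.53% down in Shp2 KO, 9.04% and 4.56% in Double KO, and 7.6% up in IkkB KO. The 2 rises in Double KO livers and the 1 rise in Shp2 KO hepatocytes lie near these shares. The 3 in Shp2 KO livers were Egfr, Fgfr2 and Fgfr3, and the last of these was added after its values were seen. Egfr, the epidermal growth factor receptor, fell to 71.6 FPKM in Shp2 KO and 60.05 in Double KO livers, against 139 in WT (q = 0.00838 and 0.000955 in the authors' deposited table). It also fell to 69.6 in Shp2 KO and 99.05 in Double KO hepatocytes, against 186 in WT (authors' deposited table, q = 0.00048 and 0.00714). In IkkB KO Egfr had 89.3 in liver and 178 in hepatocytes, and neither differed from WT past the threshold.

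Fgfr2, a fibroblast growth factor receptor, fell to 2.68 in Shp2 KO livers, against 6.53 in WT (q = 0.000955 in the authors' deposited table), and had 5.50 in Double KO livers (q = 0.556). In hepatocytes it fell to 3.19 in Shp2 KO and 4.58 in Double KO, against 13.1 in WT (authors' deposited table, both q = 0.00048). Fgfr3 fell to 8.45 in Shp2 KO and 8.14 in Double KO livers, against 17.6 in WT, and to 8.72 and 8.59 in the same hepatocyte genotypes, against 13.9 in WT. Lepr, the leptin receptor, moved otherwise in hepatocytes: it rose to 2.79 in IkkB KO and fell to 0.312 in Double KO, against 0.940 in WT. In liver Lepr had 0.582 in Shp2 KO, 0.723 in Double KO, 1.01 in IkkB KO and 0.577 in WT, with none past the threshold. Double KO thus stood above WT in liver and below it in hepatocytes. Pdgfrb, a platelet-derived growth factor receptor that also stands in the list of stellate cell markers, rose to 3.38 in Double KO livers, against 2.16 in WT (q = 0.0152 in the authors' deposited table). In hepatocytes it rose to 1.25 in Double KO (q = 0.0224 in the authors' deposited table) and 1.89 in IkkB KO, against 0.642 in WT, and had 0.764 in Shp2 KO. Stellate cell marker sums were higher in all 3 knockouts than in WT in both tables. In IkkB KO livers, however, none of the 11 markers rose and 1 fell, and Pdgfrb had 1.71. The part of stellate cells in the Pdgfrb values was not tested.

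Among docking and adaptor proteins beside Gab1, all changes against WT were rises. Of 15 tested, 3 rose in Double KO livers and 1 in Shp2 KO livers, and in hepatocytes 5 of 15 rose in IkkB KO and 2 of 15 in Double KO. Over all tested genes 11.5% rose in Double KO livers, 5.23% in Shp2 KO livers, 7.6% in IkkB KO hepatocytes and 9.04% in Double KO hepatocytes, so that the counts of 1 and 2 lie near these shares. Sirpa, a membrane protein of myeloid cells that recruits Shp2 and its relative Shp1, rose to 13.5 FPKM in Double KO livers, against 6.05 in WT. Sirpa rose to 4.38 in Double KO and 6.01 in IkkB KO hepatocytes, against 2.35 in WT. Gab2, the paralogue of Gab1, rose to 0.993 in Double KO livers, against 0.511 in WT (q = 0.00620 in the authors' deposited table). The part of macrophages in these values was not tested. Irs2, a docking protein of the insulin receptor, rose to 2.47 in Shp2 KO livers, against 1.53 in WT (authors' deposited table, q = 0.0410), and had 1.17 in Double KO livers. In hepatocytes Irs2 stood lower in Shp2 KO, at 2.38 against 3.61 in WT, which did not pass (authors' deposited table, q = 0.109). It rose to 6.42 in IkkB KO hepatocytes (q = 0.00582).

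Ptpn6, which encodes the related phosphatase Shp1 and is high in blood cells, had 11.2 FPKM in Shp2 KO, 13.8 in Double KO, 11.1 in IkkB KO and 9.28 in WT livers, and its rise in Double KO passed (q = 0.0242 in the authors' deposited table). In hepatocytes it had 11.4, 12.5, 11.1 and 10.5 in the same genotypes, with none past the threshold. Ptprc, the leukocyte phosphatase CD45, rose to 4.05 in Double KO livers, against 1.53 in WT, and in hepatocytes it rose to 0.817 in Shp2 KO, 1.24 in Double KO and 1.43 in IkkB KO, against 0.343 in WT. Ptpn11 made up 26.8% of the Ptpn11 and Ptpn6 sum in Shp2 KO, 30.6% in Double KO, 47.7% in IkkB KO and 57.3% in WT livers.

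Beside Hras and Nras, Rras, a relative with roles in cell adhesion, rose to 45.0 FPKM in Shp2 KO livers, against 28.8 in WT (q = 0.00945 in the authors' deposited table), and to 49.9 in Shp2 KO hepatocytes, against 28.1 in WT (q = 0.00048). It had 37.1 in Double KO livers and 34.0 in Double KO hepatocytes, which did not pass. Of 7 tested further Ras GTPases 1 rose in Shp2 KO and 2 in Double KO livers, where 5.23% and 11.5% of all tested genes rose. The 1 rise lies near its share. The 2 in Double KO livers were Rap1b at 30.7, against 20.6 in WT, and Rras2 at 11.3, against 7.36 in WT. Of the GTPase activating proteins, which switch Ras off, 3 of 10 rose in Double KO livers, where 11.5% of all tested genes rose and all 11 macrophage markers did. The part of macrophages in these counts was not tested. Rasa4 rose to 2.33 in Double KO and 1.496 in IkkB KO livers, against 0.778 in WT. Rasal2, of the same list, fell to 0.780 in IkkB KO livers, against 1.68 in WT (q = 0.00379 in the authors' deposited table). Rasgrp3, an exchange factor of another family than Sos1, rose to 1.31 in Double KO and 1.27 in IkkB KO hepatocytes, against 0.534 in WT. In liver it had 1.32 in Double KO, 1.11 in IkkB KO and 1.22 in WT, with neither past the threshold. Of 11 endothelial markers 7 rose in Double KO and 10 in IkkB KO hepatocytes, and of 11 stellate cell markers 8 and 11 did. Over all tested genes 9.04% and 7.6% rose there. The part of these cells in the Rasgrp3 values was not tested. Sos2, the paralogue of Sos1, stayed between 2.10 and 2.40 in liver and between 2.26 and 2.86 in hepatocytes, with none past the threshold.

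Among scaffolds and modulators of the kinase cascade, Pebp1 changed in opposite directions in the single knockouts. Pebp1 encodes a protein that inhibits the step between Raf kinases and MEK. It rose to 253 FPKM in Shp2 KO and 208 in Double KO livers and fell to 57.2 in IkkB KO livers, against 116 in WT (all q = 0.000955 in the authors' deposited table). In hepatocytes it rose to 124 in Shp2 KO (q = 0.00499) and 165 in Double KO and fell to 35.2 in IkkB KO, against 74.9 in WT (authors' deposited table, both q = 0.00048). All 6 differences thus passed, with the same sign in both tables. Double KO stood 3.63-fold above IkkB KO in liver and 4.68-fold above it in hepatocytes.

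Other modulators rose in several groups. Iqgap1, a scaffold for MEK and ERK, rose to 3.57 in Double KO livers, against 1.43 in WT, and to 1.51 in Shp2 KO, 2.23 in Double KO and 1.69 in IkkB KO hepatocytes, against 0.633 in WT. Mapk7 (Erk5), an ERK relative on a separate branch, rose to 2.62 in Double KO livers, against 1.16 in WT, and in hepatocytes to 0.818 in Shp2 KO, 1.13 in Double KO and 0.846 in IkkB KO, against 0.383 in WT. Mapk7 was the only member of its list of Raf, MEK and ERK kinases to pass in any comparison against WT, 7 genes having been tested. Over all tested genes 11.5% rose in Double KO livers. In hepatocytes 7.13% rose in Shp2 KO, 9.04% in Double KO and 7.6% in IkkB KO. A count of 1 of 7 lies near these shares. Mknk2, a kinase that ERK phosphorylates, rose to 76.4 in Shp2 KO, 83.9 in Double KO and 73.7 in IkkB KO livers, against 45.3 in WT, and had 85.5, 67.8 and 58.8 in the same knockout hepatocytes, against 58.1 in WT, with none past the threshold there. Macrophage marker sums were higher in all 3 knockouts than in WT in both tables, and their part in these rises was not tested.

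Of the 10 lists of genes around the chain, 1 had the most falls, summed over the 3 comparisons with WT in each table. It held genes that ERK activity induces, some of which feed back on ERK, and is called the feedback list here. The lists were chosen with earlier results of these data known, so the counts below are a description and not a test. In Shp2 KO livers 8 of 11 tested feedback genes fell and none rose, and in Double KO livers 5 of 11 fell. In hepatocytes 7 of 9 fell in Shp2 KO and none rose, 5 of 10 fell and 1 rose in Double KO, and 4 of 10 rose and 1 fell in IkkB KO. Over all tested genes 4.1% fell in Shp2 KO livers and 6.62% in Double KO livers. In hepatocytes 4.53% fell in Shp2 KO, 4.56% fell and 9.04% rose in Double KO, and 7.6% rose and 1.81% fell in IkkB KO. The 1 rise in Double KO lies near its share. Ccnd1, which encodes cyclin D1, was the gene that rose in Double KO hepatocytes, to 7.67, against 4.93 in WT (q = 0.0269 in the authors' deposited table), and it had 4.95 in Shp2 KO hepatocytes (q = 0.993). It rose to 13.4 in IkkB KO hepatocytes (authors' deposited table, q = 0.00048). In livers Ccnd1 fell to 5.14 in Shp2 KO, against 20.3 in WT (authors' deposited table, q = 0.000955). Double KO livers had 22.2 (q = 0.844) and IkkB KO livers 15.3 (q = 0.162). Spry4, an inhibitor of receptor signalling, fell to 0.346 FPKM in Shp2 KO and 0.793 in Double KO livers, against 2.33 in WT. Spry4 was 2.29-fold higher in Double KO than in Shp2 KO livers (q = 0.00560 in the authors' deposited table), and Ptpn11 was also higher there. Unlike Ptpn11, Spry4 stood higher in IkkB KO livers (2.75) than in WT livers. In hepatocytes Spry4 fell to 0.375 in Shp2 KO and 0.574 in Double KO, against 2.78 in WT, and these 2 knockouts did not differ past the threshold.

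**Figure D4:**
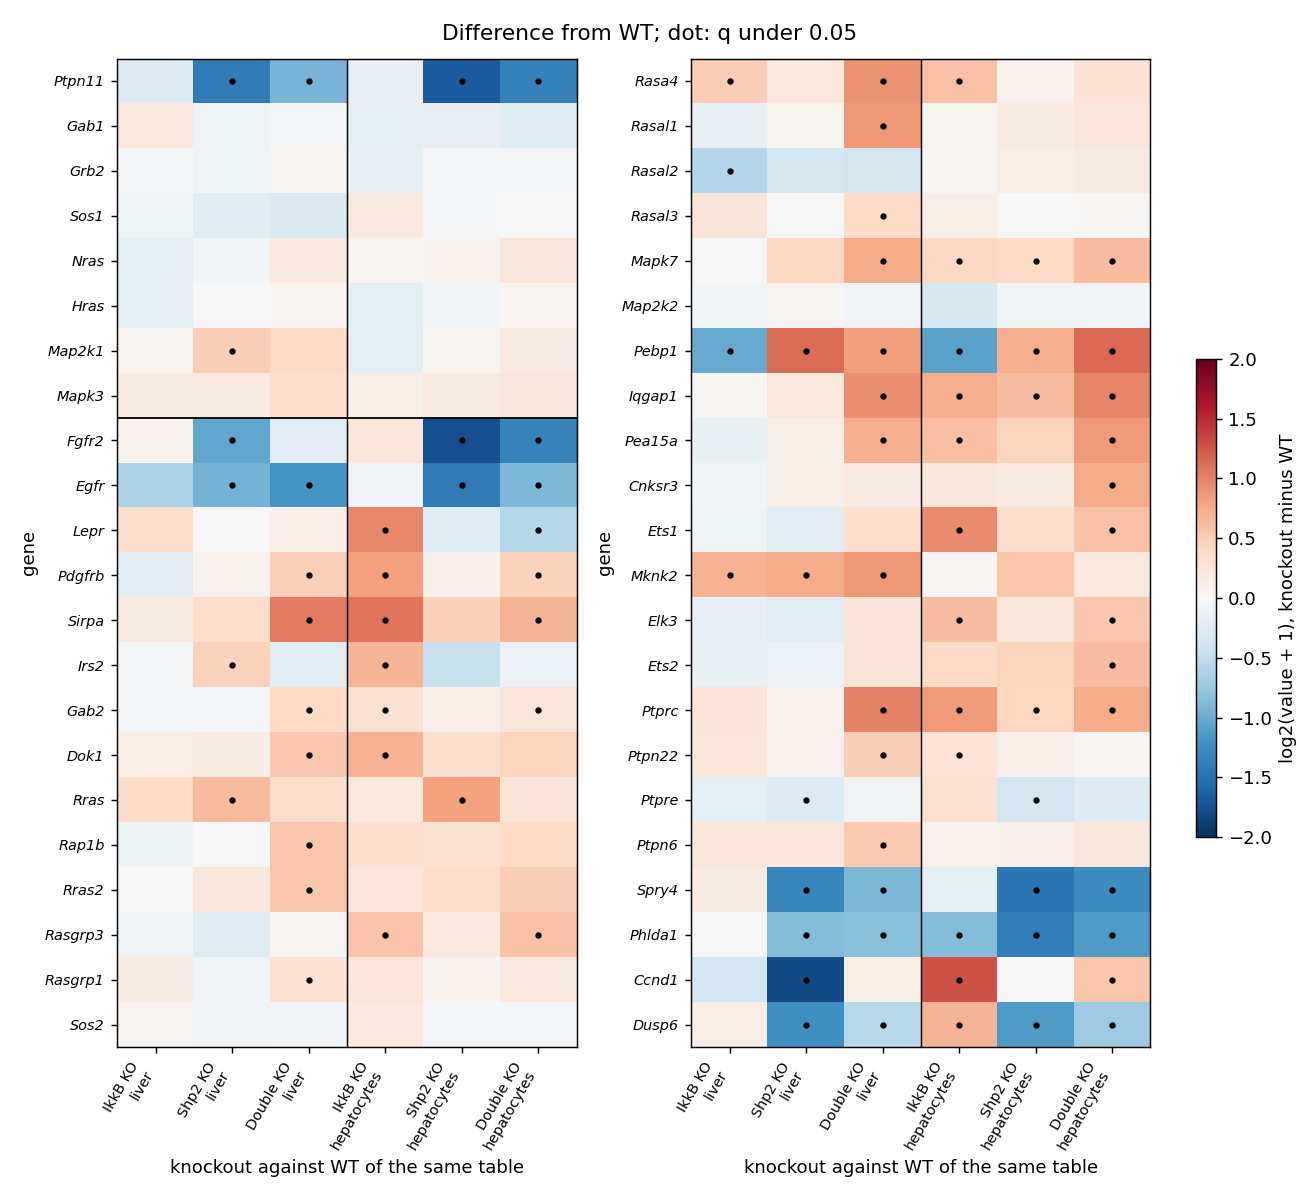
Difference from WT in log2(value + 1), knockout minus WT of the same table, for the 8 genes of the chain (above the line in the left panel) and for named genes of the lists around it, with IkkB KO, Shp2 KO and Double KO of liver and then of hepatocytes as columns. A dot marks a q-value under 0.05 in the authors' deposited table, and among the 8 genes 5 of 48 squares carry one, Ptpn11 in Shp2 KO and Double KO of both tables and Map2k1 in Shp2 KO livers.

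In all, 106 genes in 10 lists stood around the chain. Of these, 4 rose and 12 fell among 93 tested in Shp2 KO livers, 19 rose and 7 fell among 97 in Double KO livers, and 2 rose and 3 fell among 95 in IkkB KO livers. In hepatocytes 7 rose and 11 fell among 88 in Shp2 KO, 15 rose and 11 fell among 89 in Double KO, and 21 rose and 2 fell among 91 in IkkB KO. The 3 comparisons with WT in a table share their WT libraries. Over all tested genes 5.23% rose and 4.1% fell in Shp2 KO livers, 11.5% and 6.62% in Double KO livers, and 2.37% and 2.17% in IkkB KO livers. In hepatocytes 7.13% rose and 4.53% fell in Shp2 KO, 9.04% and 4.56% in Double KO, and 7.6% and 1.81% in IkkB KO.

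Between the knockouts the 106 genes split as follows. In Double KO against IkkB KO 15 rose and 5 fell among 97 in liver, where 11.5% of all tested genes rose and 7.5% fell. The same pair in hepatocytes gave 3 rises and 15 falls among 91, where 5.75% of all tested genes rose and 5.62% fell. In Double KO against Shp2 KO 20 rose and 1 fell among 97 in liver, beside 7.94% and 2.83% of all tested genes, and 3 rose and 4 fell among 90 in hepatocytes, beside 3.44% and 3.31%. In Shp2 KO against IkkB KO livers 2 rose and 10 fell among 92, beside 5.43% and 4.84% of all tested genes. The direction of most calls in Double KO against IkkB KO was thus upward in liver and downward in hepatocytes, a contrast that was not tested.

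The genes whose levels followed Ptpn11 most closely were found by correlating log2(value + 1), centred within each table, over the 8 groups. Among 9398 genes with a value of at least 1 in every group, 75 had a Pearson r above 0.95 and 289 had one above 0.9. The 8 points are group values that share a table and its scaling, so r is a description only. Irf5, a transcription factor of the interferon response, had the highest r at 0.995, followed by Gm4788 and Pzp (both 0.994), Wsb1 (0.992) and Zfp933 (0.990).

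Irf5 had 2.99 FPKM in Shp2 KO, 5.86 in Double KO, 9.71 in IkkB KO and 11.4 in WT livers, and 2.85, 4.12, 13.5 and 14.7 in the same hepatocyte genotypes. In both tables it fell in both of these knockouts, Shp2 KO and Double KO (authors' deposited table, liver q = 0.000955, hepatocyte q = 0.00048). Wsb1, an adaptor of ubiquitin ligases, fell to 8.15 in Shp2 KO and 12.6 in Double KO livers, against 18.4 in WT, and to 9.87 and 12.3 in the same hepatocyte genotypes, against 25.8 in WT. Pzp, a protease inhibitor secreted by the liver, and Zfp933 did not pass in any comparison against WT, and both had their lowest value in Shp2 KO of each table.

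**Figure D5:**
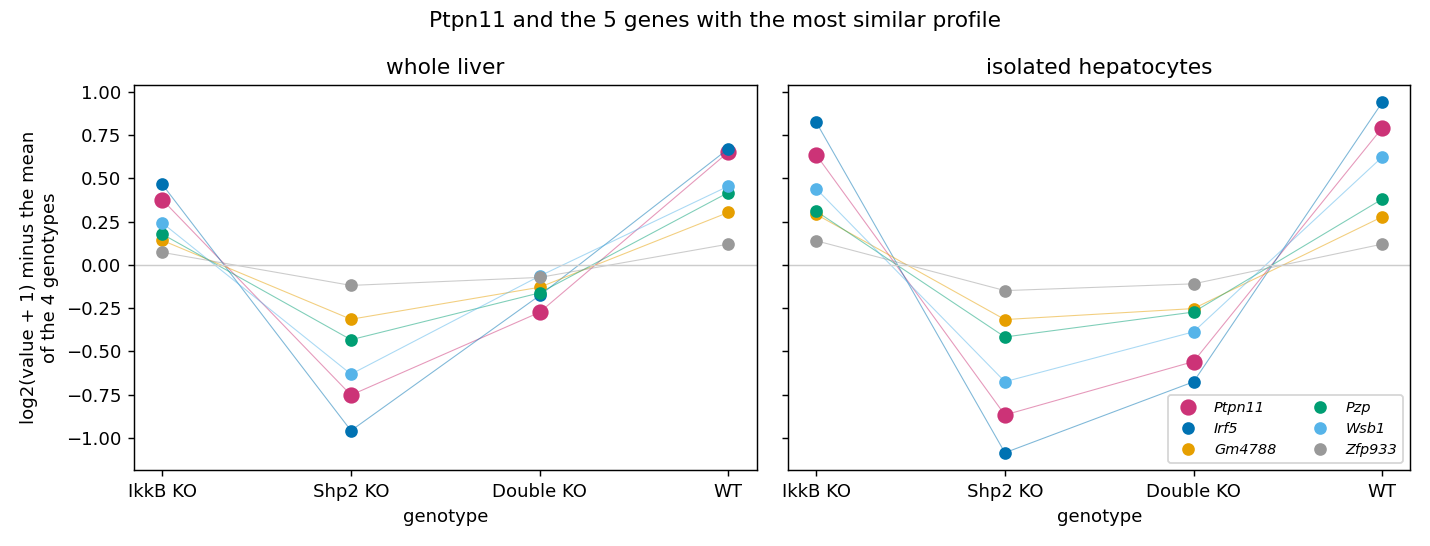
Difference of each group's log2(value + 1) from the mean of its table for Ptpn11 and the 5 genes whose pattern was most like it over the 8 groups. All 6 genes are lowest in Shp2 KO in both tables, and Irf5 follows Ptpn11 most closely (r = 0.995).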

How the data were processed

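PolyA RNA of 24 samples was made into Illumina TruSeq v2 libraries, 12 from whole liver and 12 from isolated hepatocytes, per the labels' protocols. Per the submitters' processing notes, FastQC and Cuffdiff were run on build mm9, with aligner, annotation and versions not given in the sources used here. The authors deposited 1 table for liver (6 pairs of genotypes) and 1 for hepatocytes (5 pairs, without Shp2 KO against IkkB KO). The values that the authors deposited, 1 per gene and genotype, carry no unit in the header (other) and were read as FPKM, the usual output of Cuffdiff. The authors' deposited log2 fold change is that of 2 such values, turned here where needed so that the group named first is on top. Each p-value and q-value is from the authors' deposited Cuffdiff test. The deposited test statistic, a score per the file headers, was not used. Liver q-values equal a Benjamini-Hochberg adjustment of the p-values over all 6 pairs (largest difference 5.27e-07). For hepatocytes such an adjustment over the 5 pairs did not give the deposited q-values (largest difference 0.284). The tables hold 0 columns per replicate, no counts and no library sizes, so depth, intervals and tests across samples could not be computed.

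Genes were called at q under 0.05 with a value reaching 0.1 in either genotype, and differences were computed as log2(value + 1). The 8 genes and the lists around them were chosen with earlier results of these data known. Named genes were all 8, up to 4 per list that passed against WT (smallest q first), the close paralogues, and the 5 genes most like Ptpn11. Fgfr3 was added to these after its values were seen. Some close paralogues are not reported here, and not every gene that met this rule is described. Sequences are from GENCODE M21 on GRCm38. Transcripts were compared in windows of 50 bases. Python 3.11.15, numpy 2.4.6, pandas 2.3.3, Biopython 1.88 and matplotlib 3.10.9 were used. The Benjamini-Hochberg adjustment and the ranking by likeness to Ptpn11 were tried on simulated data. That trial does not bear on the main calls, which use the authors' deposited q-values. Alternatives tried were a q under 0.01, other minimum values, another pseudocount, adjustment within a comparison, centring on the median and a log2 difference of at least 1.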

Additional observations from a re-analysis of the deposited data

How the results depend on the processing

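Of the 88 differences of the 8 genes, all kept their sign and their side of the threshold with no minimum value, with a minimum of 1 and with a pseudocount of 0.1. A q under 0.01 ended 2 calls, Map2k1 in Shp2 KO against WT livers and Ptpn11 in Double KO against Shp2 KO livers (0.48 on the log2(value + 1) scale, q = 0.0226 in the authors' deposited table). Adjustment within the comparison ended 1, Map2k1. A log2(value + 1) difference of at least 1 ended 4 calls. Among them were Ptpn11 in Double KO against WT livers (-0.93) and in Double KO against Shp2 KO livers (0.48). The authors' log2 fold change of the former was -1.03, past a cut of 1. The cut on log2(value + 1) left 1 call against WT and 1 between knockouts in liver, where 3 and 3 had passed. In the lists, over the comparisons with WT, it left 9 calls in liver, where 47 had passed, and 12 in hepatocytes, where 67 had passed. Adding 1 shrinks the differences of genes with low values, such as Rasal1 in Double KO against WT livers (6.51-fold, 0.87). Centring on the median of tested genes reversed the sign of 4 differences that had not passed: Hras in Shp2 KO (0.015) and Gab1 in Double KO (0.014) against WT livers, Sos1 in Double KO against WT hepatocytes (-0.0044), and Grb2 in Double KO against Shp2 KO hepatocytes (-0.023). Median shifts of all tested genes were within 0.1 in every comparison. Over all genes, the calls per comparison ranged between 567 and 2459, between 325 and 1670 with a q under 0.01, between 379 and 2806 with adjustment within the comparison, and between 98 and 538 with a log2 difference of at least 1. The 5 genes most like Ptpn11 were the same 5 with a pseudocount of 0.1 or a minimum value of 0.1. No paired analysis was possible because the tables hold no value per replicate, and for the same reason no replicate could be left out. The p-values are the authors' own, and how far 1 library decides a value is unknown.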
